A study of Mus musculus with 18 samples.

Results

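Heterotrimeric G protein subunit genes and genes of the regulators of G protein signaling (RGS) were examined in the frontal cortex (FC), striatum (STR) and hippocampus (HIP) of WT and Pcm1-/- mice. Members were the protein-coding genes whose symbols name a numbered or lettered Gna, Gnb, Gng or Rgs gene, without Gnal, Gng7, Rgs5 and Rgs9, and whose count reached 10 in any of the 18 libraries. Of 51 genes matched by symbol, 48 passed, among 17545 genes tested in all. They were 14 alpha subunits, 5 beta subunits, 10 gamma subunits and 19 RGS genes, the last including Rgs7bp and Rgs9bp, which encode binding partners of RGS proteins rather than RGS proteins. Gnat3, Gngt1 and Rgs18 were below the minimum, with at most 0, 1 and 8 counts.

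G protein-coupled receptors switch on a trimer of alpha, beta and gamma subunits. The alpha subunit binds GTP and separates from the beta-gamma pair, and both then act on enzymes and channels such as adenylyl cyclases, phospholipase C beta and the GIRK potassium channels. The stimulatory subunit Gnas raises cAMP, the inhibitory group (Gnai1 to Gnai3, Gnao1, Gnaz) lowers it or acts through beta-gamma, and the Gq group (Gnaq, Gna11, Gna14, Gna15) drives phospholipase C. RGS proteins speed GTP hydrolysis on the alpha subunit and so shorten the signal. In the striatum, the stimulatory dopamine and adenosine receptors act largely through Gnal and Gng7, which are among the signaling partners described last, while the inhibitory ones, such as the dopamine receptor Drd2, act through the Gi/o group.

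The libraries came from adult mice of the strain labelled C57 Bl6J, 3 WT and 3 labelled PCM1 KO (Pcm1-/-, called KO here) in each region, with no treatment named. The mutant allele is a gene trap made in the embryonic stem cell line E14Tg2a.4, of 129 origin, and was backcrossed to C57BL/6J, and WT mice were littermates. DNA near Pcm1 may therefore differ between the genotypes. Among the members Gnao1 lies on the chromosome of Pcm1. The deposited names show the same animals in the 3 regions, so replicates of a group are separate mice, while regions are not separate animals. Replicate numbers follow the animals across regions except in WT striatum, whose replicates 1, 2 and 3 are the animals of WT replicates 3, 1 and 2 in the other regions.

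Totals of counts on genes ran from 24950537 to 33405081 per library. Pcm1 itself had 313 to 520 counts in KO libraries and 3425 to 4919 in WT libraries. Region labels held against their markers, given as summed CPM, counts scaled to library size: the 7 striatal neuron markers reached 6466 to 7549 CPM in WT striatum and 197 to 219 CPM in WT frontal cortex, the 5 cortical markers 602 to 625 CPM in WT frontal cortex and at most 169 CPM in the other WT regions, and the 6 hippocampal markers 1100.0 to 1230.0 CPM in WT hippocampus and at most 461 CPM in the other WT regions. Some libraries stood apart. The sum of 5 thalamus markers (Tcf7l2, Slc17a6, Prkcd, Lef1, Gbx2) was 401 CPM in WT hippocampus replicate 1, 177 CPM in replicate 2 and 380.1 CPM in replicate 3, against 77.8, 64.3 and 199 CPM in the KO hippocampus libraries. WT striatum replicate 3 had 123 CPM of them, against 32.7 and 43.5 CPM in the other WT striatum libraries, and 5621 CPM of the choroid plexus gene Ttr against 25.2 and 25.4 CPM. Fits were repeated without these libraries, and where a call of a member named below changed, both values are given.

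Levels are given as TPM, scaled to the summed length of all annotated exons of a gene. This length takes in every transcript of a gene, 11186 bases for Gnas and the whole gene span for Rgs1 and Rgs9bp, and the order of genes depends on it. In WT mice the most abundant alpha subunit among the members was in each region Gnao1, the Go subunit of neurons, at 308 ± 6.75 TPM in frontal cortex, 352 ± 11.01 TPM in striatum and 298 ± 11.6 TPM in hippocampus (SD, n = 3 each). The inhibitory subunit Gnai1 followed in frontal cortex (289.7 ± 27.9 TPM) and hippocampus (258 ± 44.6 TPM), and Gnai2 in striatum (209 ± 17.2 TPM; SD, n = 3 each). The means of Gnao1 and Gnai1 lay within their spread of each other in frontal cortex and hippocampus. In hippocampus Gnaq (253.9 ± 27.09 TPM) and Gnai2 (235.5 ± 0.958 TPM; SD, n = 3 each) lay within the spread of Gnai1. Gnal, outside the rule, was at 355 ± 13.03 TPM in striatum (SD, n = 3), within the spread of Gnao1 there. Gnb1 led the beta subunits with 833 ± 27.3 TPM in frontal cortex, 589 ± 14.05 TPM in striatum and 659.9 ± 78.3 TPM in hippocampus, which was 71.3%, 51.4% and 68.6% of the beta total. Gnb2 came next in each region. Gng3, a neuronal gamma subunit, led the gamma subunits among the members with 577 ± 37.3 TPM, 237 ± 30.4 TPM and 443 ± 83.4 TPM (SD, n = 3 each), followed by Gng2 in frontal cortex and hippocampus and by Gng12 in striatum. Gng7, also outside the rule, was at 1521 ± 213 TPM in striatum and exceeded Gng3 there.

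Rgs4, which acts on the Gi/o and Gq groups, led the RGS members in frontal cortex with 617 ± 33.9 TPM and in striatum with 1079 ± 156 TPM. In hippocampus Rgs7bp, the membrane anchor of the R7 group of RGS proteins, was at 244 ± 6.23 TPM and Rgs4 at 203 ± 23.2 TPM (SD, n = 3 each). Summed over its 19 genes, the RGS family had 1287 ± 53.6 TPM in frontal cortex, 2111 ± 176 TPM in striatum and 902 ± 58.00 TPM in hippocampus. The gamma members had 978 ± 38.5, 474 ± 34.8 and 962 ± 131 TPM in the same order. The alpha members had 1600.0 ± 56.2, 1347 ± 25.3 and 1650.0 ± 131 TPM, and the beta members 1168 ± 50.3, 1147 ± 70.2 and 962 ± 131 TPM (SD, n = 3 each). With the genes left out by the rule the order changed for 2 families. The gamma total with Gng7 was 1068 ± 39.9, 1995 ± 178 and 1166 ± 153 TPM, highest instead of lowest in striatum. The alpha total with Gnal was 1688 ± 61.00, 1702 ± 16.9 and 1724 ± 129 TPM, without the lower striatal value of the members alone. The RGS total with Rgs5 and Rgs9 was 1376 ± 58.2, 2481 ± 161 and 986 ± 57.3 TPM (SD, n = 3 each). These sums are descriptions and were not tested.

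**Figure D1:**
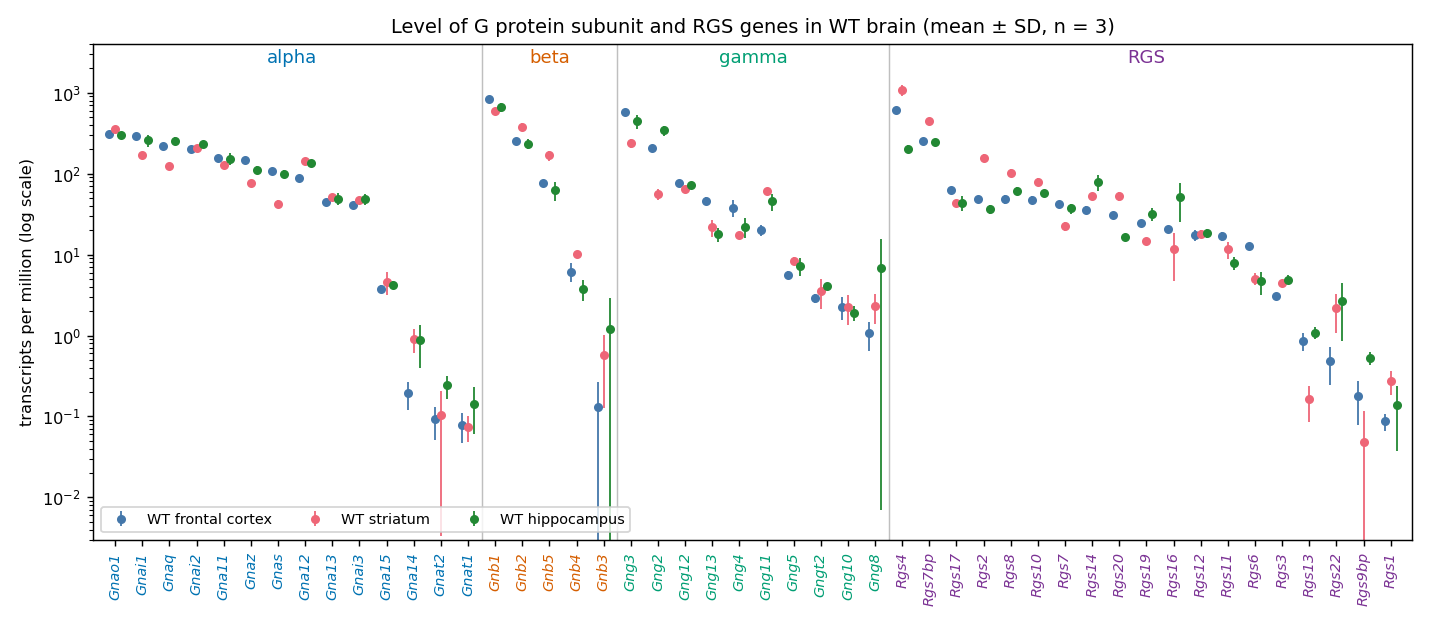
Mean level of each of the 48 genes in WT frontal cortex, striatum and hippocampus, in TPM (counts scaled to summed exon length and library size) on a log axis, with SD over 3 mice; whiskers that would reach 0 are cut at the axis. Rgs4 reaches 1079 TPM in striatum, the highest RGS value in the plot.

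At the other end, 6 members stayed below 1 CPM in every group mean: Gnat1 and Gnat2, the transducins of rods and cones, Gng10, Rgs1, Rgs13 and Rgs9bp. Fold changes on so few counts depend on the prior count of the fit. Counts on Gng5 and Gng10 are uncertain, since reads with more than 1 position in the genome were dropped and these genes have near-identical copies. Gnas lies in a locus of overlapping transcripts, and reads shared by several genes were set aside in the counting.

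Differences between regions were tested in WT mice and again in the KO mice, which are other animals. A gene was called at an edgeR adjusted p under 0.05 and a difference of at least 2-fold. Between WT striatum and WT frontal cortex, 14 of 48 members (29.2%) were called, where 17.4% of all genes were called. Of these, 7 were higher in striatum (all genes 8.76%) and 7 lower (all genes 8.6%). Between WT hippocampus and WT frontal cortex 10 members (20.8%) were called beside 12.2% of all genes, 6 higher (all genes 7.29%) and 4 lower (all genes 4.93%). Between WT striatum and WT hippocampus 11 (22.9%) were called beside 12.7% of all genes, 5 higher in striatum (all genes 5.65%) and 6 lower (all genes 7.08%). Some calls were of members under 1 CPM in each WT group mean: Rgs1, Rgs13 and Gna14 among the 14, Gna14 among the 10, and Rgs13 and Rgs9bp among the 11. Rgs1 reached the count minimum only in WT striatum and hippocampus, Gna14 only in striatum and hippocampus, and Rgs9bp only outside striatum. The rule thus took these 3 in through regions where they were high. The members were not compared with other genes by a test.

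Without the 2-fold limit the members called in these contrasts were 34, 24 and 23, beside 48.3%, 37.7% and 35.9% of all genes. The libraries of the regions did not overlap for 39, 28 and 25 members, beside 54.9%, 44.4% and 41.4% of all genes. By family, the 2-fold calls of striatum against frontal cortex were 6 of 19 RGS genes, 5 of 10 gamma, 2 of 14 alpha and 1 of 5 beta subunits. In hippocampus against frontal cortex they were 6 RGS genes, 3 gamma, 1 alpha and 0 beta subunits, and in striatum against hippocampus 7 RGS genes, 1 gamma, 1 alpha and 2 beta subunits.

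Among the RGS genes, Rgs4 and Rgs2 were highest in striatum. Rgs4 measured 1022, 866 and 767 CPM in the 3 WT striatum libraries, 491, 502 and 501 CPM in frontal cortex and 161, 146 and 164 CPM in hippocampus. No library of a region overlapped another region. The log2 difference was 2.50 ± 0.10 (SE) between striatum and hippocampus, a fold of 5.64 (edgeR adjusted p = 4.49e-12), and -1.67 ± 0.10 (SE) between hippocampus and frontal cortex (edgeR adjusted p = 1.59e-09). The KO mice gave 2.38 ± 0.10 and -1.82 ± 0.10 (SE) for Rgs4.

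Rgs2, which acts on Gq and is induced by cAMP, measured 155, 166 and 134 CPM in WT striatum, 47.3, 48.8 and 42.1 CPM in frontal cortex and 33.2, 31.1 and 35.2 CPM in hippocampus. Every striatum library lay above every library of the other regions. Rgs2 in striatum was higher by 1.72 ± 0.08 (SE, log2) than in frontal cortex, a fold of 3.29 (edgeR adjusted p = 3.02e-11), and by 2.19 ± 0.08 (SE, log2) than in hippocampus (edgeR adjusted p = 1.84e-12).

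The gamma subunit Gng2, a partner of beta subunits in brain, went the other way. It measured 56.3, 62.8 and 76.4 CPM in WT striatum, 224, 241 and 245 CPM in frontal cortex and 364, 433 and 330.0 CPM in hippocampus. The striatum was lowest without overlap. The log2 difference of Gng2 was -1.86 ± 0.12 (SE) against frontal cortex (edgeR adjusted p = 2.54e-09) and -2.53 ± 0.13 (SE) against hippocampus, a fold of 5.76 (edgeR adjusted p = 8.1e-11). The KO mice gave -2.24 ± 0.13 and -3.05 ± 0.13 (SE) for Gng2.

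The sequences before the RefSeq starts of Rgs2, Rgs4 and Gng2 are shown because these are abundant members with wide region differences in both directions. Each is 250 bases long, from GRCm38.p6, on the minus strand and written 5′ to 3′ up to the base before the start. Capitals mark matches, on either strand, to TGACG (the core of the cAMP response element TGACGTCA, which contains it), to the GC box GGGCGG and to the TATA box TATAAA.
Rgs2, chr1:144004150-144004399: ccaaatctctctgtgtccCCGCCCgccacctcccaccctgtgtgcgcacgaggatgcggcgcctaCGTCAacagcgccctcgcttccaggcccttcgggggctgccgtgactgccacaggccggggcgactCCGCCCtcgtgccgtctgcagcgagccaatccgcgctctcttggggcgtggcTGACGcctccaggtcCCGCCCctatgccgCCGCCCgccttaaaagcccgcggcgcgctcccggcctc
Rgs4, chr1:169747643-169747892: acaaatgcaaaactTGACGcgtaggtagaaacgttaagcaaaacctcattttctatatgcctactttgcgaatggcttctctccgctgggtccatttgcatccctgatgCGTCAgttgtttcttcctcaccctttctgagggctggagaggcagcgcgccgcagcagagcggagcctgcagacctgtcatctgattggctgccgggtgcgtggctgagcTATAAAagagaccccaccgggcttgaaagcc
Gng2, chr14:19976694-19976943: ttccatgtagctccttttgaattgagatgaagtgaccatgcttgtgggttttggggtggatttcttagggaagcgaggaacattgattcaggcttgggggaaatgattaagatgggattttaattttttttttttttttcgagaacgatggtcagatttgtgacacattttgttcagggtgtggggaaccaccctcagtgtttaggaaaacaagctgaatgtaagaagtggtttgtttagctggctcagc
The Rgs2 window held 2 TGACG matches and 4 GC boxes, the Rgs4 window 2 TGACG matches and 1 TATA box, and the Gng2 window none of these motifs. Windows of Gnb5, Rgs8 and Gng3 were looked at too. The Gnb5 window held 0 TGACG matches, 0 GC boxes and 1 TATA box, and the Gng3 window none of the motifs. The Rgs8 windows held 1, 0 and 0 TGACG matches and no other motif. In GENCODE M21 on the same build the Gng2 window lay whole inside 5 of 6 annotated Gng2 transcripts and covered 0 of their exonic bases, which places it in their introns, and the Rgs2 window reached 12 bases into the exon of 1 Rgs2 transcript. Windows were matched for 35 of the 48 members, 47 windows in all. Of these 10 (21.277%) held TGACG, 23 (48.936%) a GC box, 7 (14.894%) TATAAA and 0 the whole TGACGTCA. Over all 32851 RefSeq promoter windows the shares were 17.8%, 32.7%, 12.4% and 1.55%. A match is only a run of letters, and no binding was measured.

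Other RGS genes differed too. Rgs8, which acts on the Gi/o group, was higher in WT striatum (261 ± 27.8 CPM) than in frontal cortex (121 ± 14.2 CPM; SD, n = 3 each) by 1.11 ± 0.09, SE, log2; edgeR adjusted p = 3.35e-08. Rgs20, which acts on Gz, measured 54.4, 68.6 and 55.4 CPM in WT striatum and 18.2, 18.8 and 15.2 CPM in hippocampus (difference 1.77 ± 0.11, SE, log2; edgeR adjusted p = 1.32e-09). Both were highest in striatum without overlap. Rgs14, known from CA2 pyramidal neurons, measured 67.96, 92.9 and 88.3 CPM in WT hippocampus and 36.2, 39.2 and 43.03 CPM in frontal cortex (difference 1.07 ± 0.13, SE, log2; edgeR adjusted p = 4.9e-06).

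Rgs6 and Rgs11, both of the R7 group, were highest in frontal cortex. Rgs6 was lower in striatum by 1.30 ± 0.19 and in hippocampus by 1.51 ± 0.19 (SE, log2; edgeR adjusted p = 3.05e-05 and 1.33e-05), and Rgs11 was lower in hippocampus by 1.14 ± 0.23 (SE, log2; edgeR adjusted p = 0.00101). Without WT hippocampus replicate 3 the Rgs11 difference was -0.97, under 2-fold (edgeR adjusted p = 0.00665). Rgs19, which acts on the Gi group, was at 8.81 ± 0.572 CPM in striatum and 17.7 ± 3.16 CPM in hippocampus (SD, n = 3 each), at the 2-fold limit itself (edgeR adjusted p = 2.68e-05). With the animal as a block Rgs19 fell just under 2-fold, and this was the WT call that the block ended.

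Rgs22 was low everywhere and higher outside the frontal cortex. It measured 0.4201, 1.06 and 0.627 CPM in WT frontal cortex, 2.095, 2.56 and 5.17 CPM in striatum and 2.31, 2.44 and 6.15 CPM in hippocampus. The log2 differences of Rgs22 from frontal cortex were 2.22 ± 0.47 and 2.38 ± 0.47 (SE; edgeR adjusted p = 0.00087 and 0.000735). All 3 ependyma markers were called higher in the same contrasts, and summed to 2.54 to 4.41 CPM in WT frontal cortex, 18.6 to 43.4 CPM in striatum and 18.3 to 46.98 CPM in hippocampus, with Ccdc153 and Tmem212 at 0 in some libraries. Without WT striatum replicate 3 the first Rgs22 difference was 1.73 (edgeR adjusted p = 0.00697), and without WT hippocampus replicate 3 the other was 1.75 (edgeR adjusted p = 0.00563). The part of the ependyma markers in the Rgs22 difference was not tested.

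Among the beta subunits, Gnb5, the partner of R7 RGS proteins, measured 152, 149.5 and 116 CPM in WT striatum, 62.5, 64.2 and 61.5 CPM in frontal cortex and 37.97, 52.8 and 53.1 CPM in hippocampus. Gnb5 in striatum was higher than in frontal cortex by 1.15 ± 0.11 and than in hippocampus by 1.54 ± 0.11 (SE, log2; edgeR adjusted p = 2.64e-07 and 9.61e-09), without overlap. Gnb4 was higher in striatum (34.4 ± 3.19 CPM) than in hippocampus (11.7 ± 2.68 CPM; SD, n = 3 each) by 1.55 ± 0.17 (SE, log2; edgeR adjusted p = 1.13e-06).

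Among the other gamma subunits, Gng3 measured 254, 258 and 229 CPM in WT frontal cortex and 98.1, 93.4 and 118 CPM in striatum, lower there by 1.26 ± 0.16 (SE, log2; edgeR adjusted p = 4.11e-06). Gng4 and Gng13 were lower in striatum by 1.09 ± 0.16 and 1.08 ± 0.17 (SE, log2; edgeR adjusted p = 2.98e-05 and 5.79e-05), and without WT striatum replicate 3 the Gng13 difference was -0.89, under 2-fold (edgeR adjusted p = 0.000241). Gng13 was lower in hippocampus by 1.46 ± 0.17 (SE, log2; edgeR adjusted p = 5.95e-06). Gng11 was higher than in frontal cortex in both other regions, by 1.61 ± 0.22 in striatum and 1.11 ± 0.22 in hippocampus (SE, log2; edgeR adjusted p = 1.03e-05 and 0.000695).

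Among the alpha subunits, Gnas measured 113, 128 and 137 CPM in WT striatum, 324, 313 and 294 CPM in frontal cortex and 270.2, 309 and 259.5 CPM in hippocampus. Gnas in striatum was lower than in frontal cortex by 1.30 ± 0.08 and than in hippocampus by 1.15 ± 0.08 (SE, log2; edgeR adjusted p = 1.58e-09 and 7.46e-09). Gnal, the other stimulatory subunit and outside the rule, was higher in WT striatum than in frontal cortex by 2.04 ± 0.08 and than in hippocampus by 2.34 ± 0.08 (SE, log2; edgeR adjusted p = 2.85e-12 and 5.34e-13). Gna14 was called as well, at levels under 1 CPM in each WT group mean. The highest WT region mean of Gnao1 was 1.25 times the lowest.

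**Figure D2:**
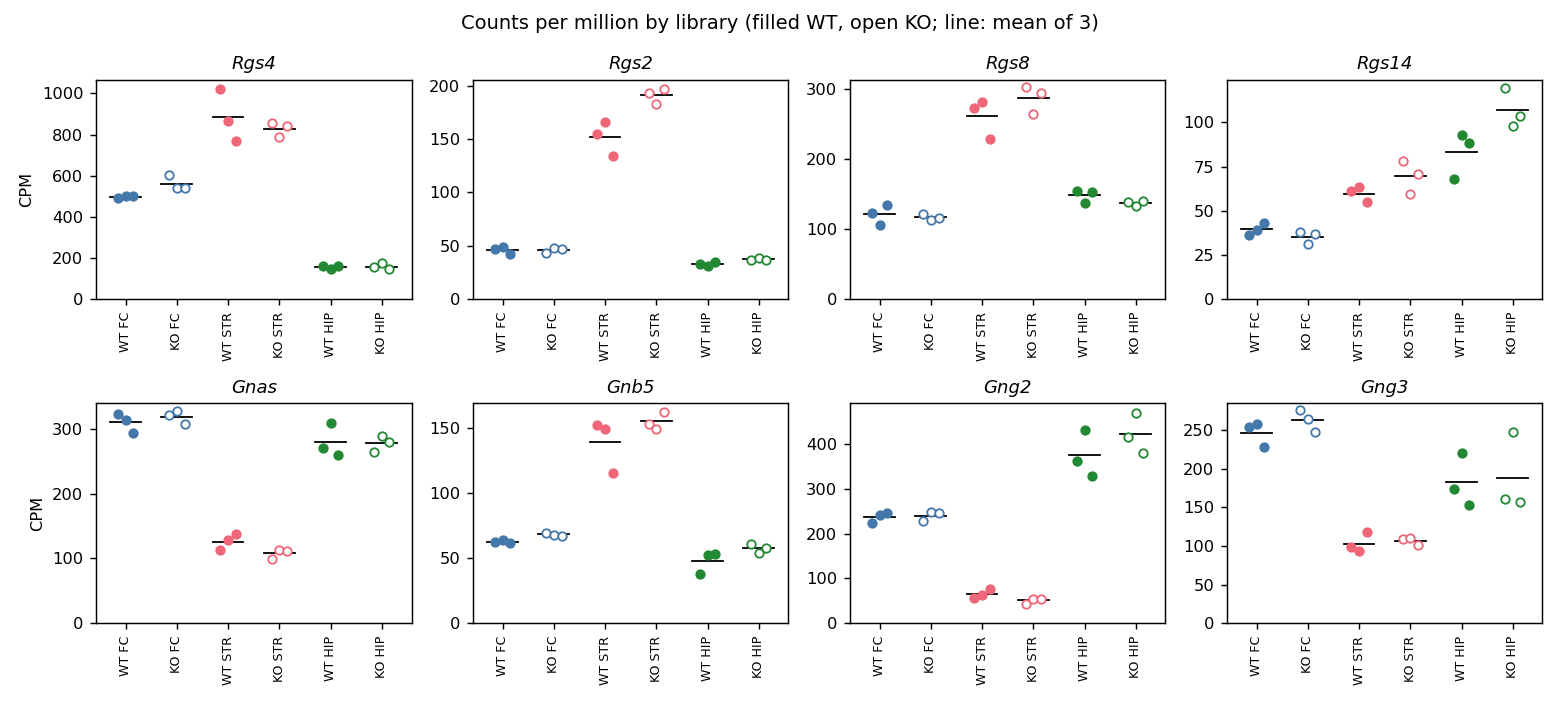
CPM of 8 members in each library, filled for WT and open for KO, with a line at the mean of 3, for frontal cortex (FC), striatum (STR) and hippocampus (HIP). Rgs4, Rgs2, Rgs8 and Gnb5 are highest in striatum, Gnas, Gng2 and Gng3 are lowest there, and Rgs14 is highest in hippocampus.

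The KO mice repeated most of these calls. Of the 14 members called in WT striatum against frontal cortex, 11 (78.6%) were called in KO mice, which is 68.8% of the 16 called there, where 18.6% of all genes were called. All 11 called in WT striatum against hippocampus were called in KO mice, 84.6% of the 13 called there, beside 15.2% of all genes. For hippocampus against frontal cortex 5 were shared, which is 50% of the 10 in WT and 71.4% of the 7 in KO mice, beside 12.4% of all genes. The 5 shared were Rgs14, Rgs22, Rgs4, Rgs6 and Gna14, and those called in WT mice without a call in KO mice were Rgs11, Rgs16, Gng11, Gng13 and Gng8. The shares of all genes given here are those called in KO mice. How many of all genes called in WT mice were called again in KO mice was not counted, so the repeat is not set against that of other genes. The WT and KO contrasts came from a single fit and share its estimate of the spread. Without the 2-fold limit the KO mice gave 35, 25 and 28 members for striatum against frontal cortex, hippocampus against frontal cortex and striatum against hippocampus, beside 51%, 37.8% and 41.5% of all genes.

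**Figure D3:**
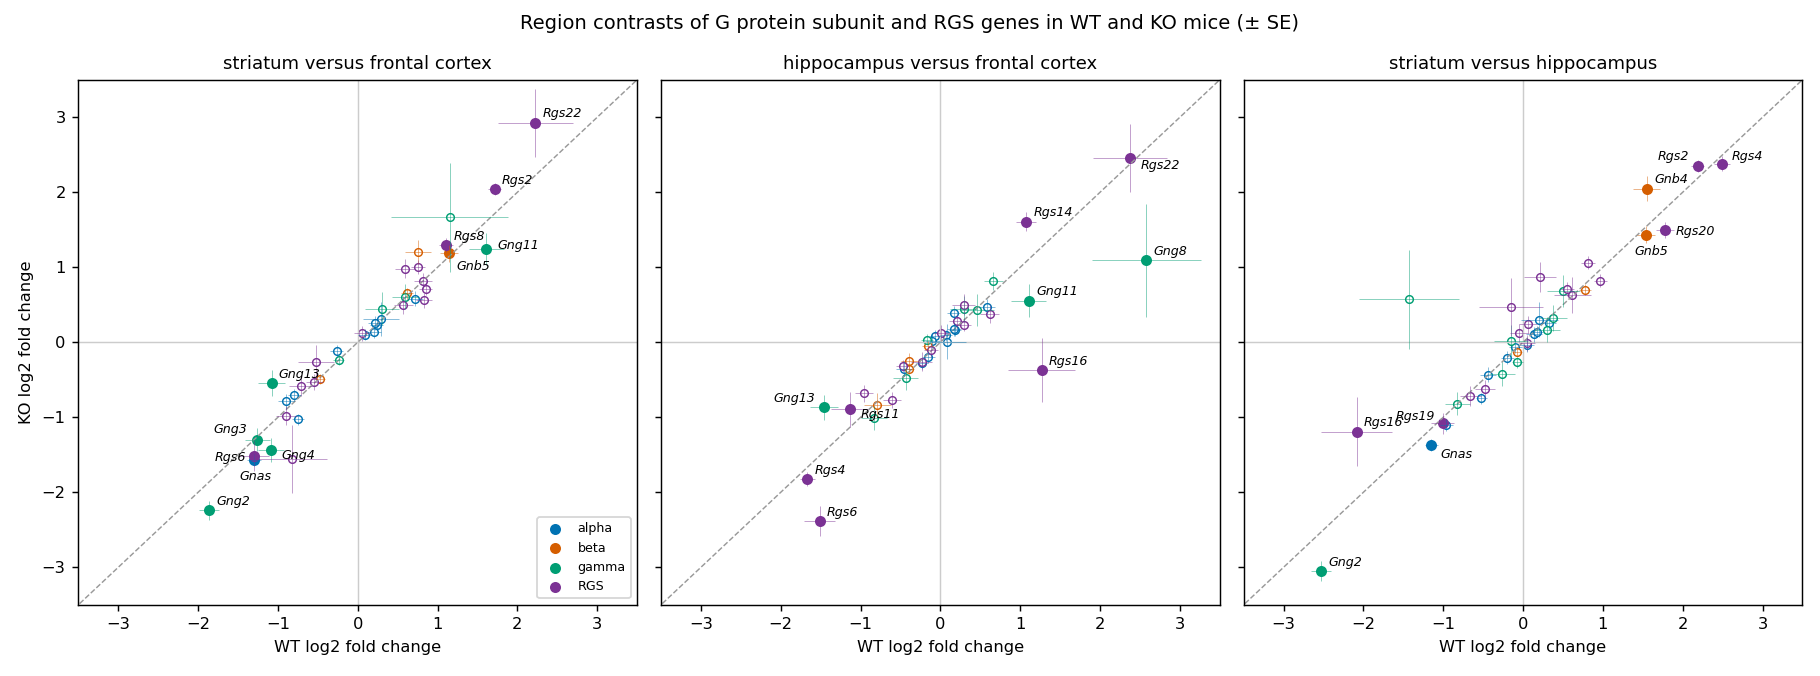
Log2 difference between regions in WT (x axis) and KO mice (y axis) with SE, for the 40 members with at least 1 CPM in a WT group mean, coloured by family; filled points were called in WT mice, and the dashed line marks equal values. Gng2 lies at -2.53 in WT and -3.05 in KO mice for striatum against hippocampus, and Gng8 at 2.58 and 1.09 for hippocampus against frontal cortex.

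Of the 10 hippocampal calls, 6 were kept without WT hippocampus replicate 3, which leaves 2 libraries (Gna14, Gng13, Rgs14, Rgs22, Rgs4 and Rgs6). Rgs16, Gng8, Gng11 and Rgs11 were not called there. Leaving out replicate 1 as well leaves WT hippocampus with replicate 2 alone, still at 177 CPM of thalamus markers, so those differences are given as values without a test. Replicate 2 is also the WT hippocampus library with high Y chromosome counts (3372). Rgs16, which acts on the Gi and Gq groups, measured 45.9, 12.9 and 32.6 CPM in WT hippocampus replicates 1, 2 and 3, 12.95, 12.2 and 12.8 CPM in frontal cortex and 5.22, 4.29 and 11.97 CPM in striatum. Its high hippocampal values were in the libraries with the most thalamus marker counts, and its highest striatal value was in replicate 3. The part of the thalamus markers in the Rgs16 values was not tested. With all libraries, Rgs16 was higher in WT hippocampus than in frontal cortex by 1.27 ± 0.42 (SE, log2; edgeR adjusted p = 0.0264). Without either replicate 1 or replicate 3 the Rgs16 difference did not pass (edgeR adjusted p = 0.159 and 0.0615), and in replicate 2 alone it was 0.03 (log2). Rgs16 was lower in WT striatum than in hippocampus by 2.09 ± 0.44 (SE, log2; edgeR adjusted p = 0.00118), and by 1.44 (log2) than in hippocampus replicate 2 alone when striatum replicate 3 was left out too.

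The gamma subunit Gng8 measured 0.924, 0.562 and 5.98 CPM in WT hippocampus. Its difference from frontal cortex, 2.58 ± 0.69 (SE, log2; edgeR adjusted p = 0.00714), was 0.82 without replicate 3 (edgeR adjusted p = 0.171) and 0.42 in replicate 2 alone. A single library, replicate 3, held most of the Gng8 signal, and replicate 1, with the most thalamus marker counts, did not. Gng11 measured 11.05, 8.13 and 11.99 CPM, and its difference became 0.98, under 2-fold, without replicate 3 (edgeR adjusted p = 0.00443) and 0.75 in replicate 2 alone. All 5 thalamus markers were called higher in WT hippocampus than in WT frontal cortex. Their part in the Gng8 and Gng11 differences was not tested.

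**Figure D4:**
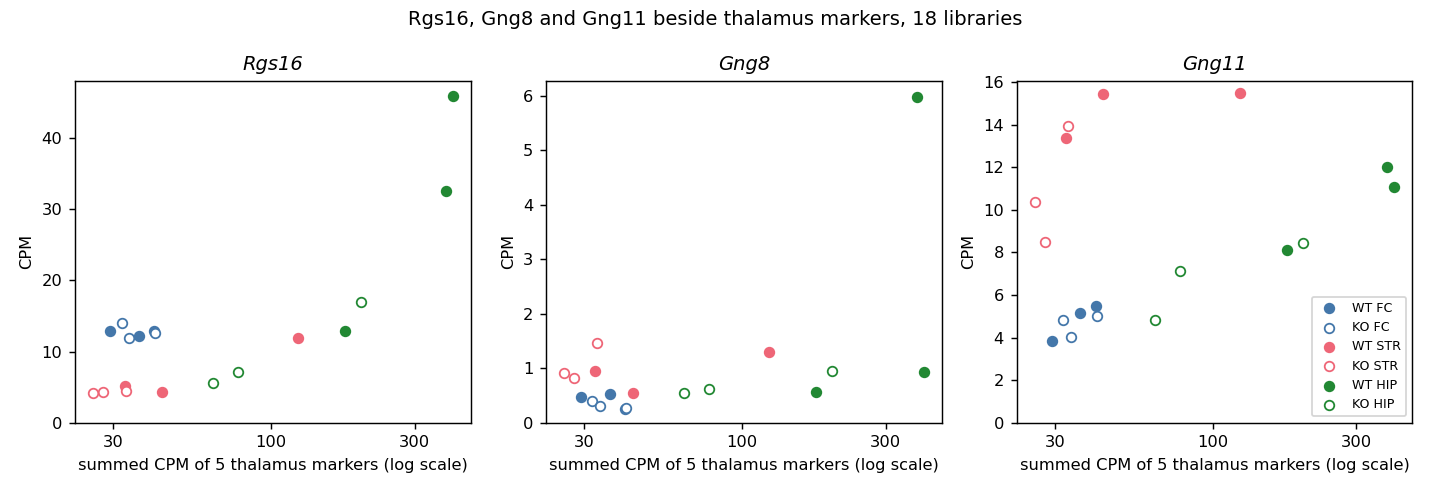
CPM of Rgs16, Gng8 and Gng11 (y axes) against the summed CPM of 5 thalamus markers (x axis, log scale) in the 18 libraries, filled for WT and open for KO. The WT hippocampus libraries at 380.1 and 401 CPM of the markers hold the highest Rgs16 values, and the single high Gng8 value is in the library at 380.1 CPM.

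Markers of other cell types differed between the regions as well. In WT mice 6 neuron markers summed to 9184 to 10470.0 CPM in frontal cortex, 4469 to 4822 CPM in striatum and 6208 to 7937 CPM in hippocampus, and 5 oligodendrocyte markers to 1757 to 2388, 8658 to 8863 and 4554 to 9209 CPM, with no marker of these lists at 0. In whole tissue, fewer cells of a type and less RNA per cell cannot be told apart, and the part of tissue makeup in the region differences was not tested.

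Some members followed a like course over the 6 group means, taken as log2 of the mean CPM plus 1, which share libraries and scaling. The added 1 compresses the values of members below 1 CPM, such as Rgs9bp. By Pearson's r, Gnb2 (0.995), Gnb5 (0.995) and Rgs7bp (0.98) were the members most like Rgs2, and Rgs20 (0.961), Gnb4 (0.927) and Gnb5 (0.836) those most like Rgs4. The members most like Gng2 were Gnaq (0.988), Rgs19 (0.982) and Rgs9bp (0.944), and those most like Gng3 were Rgs7 (0.993), Gnai1 (0.986) and Gnaz (0.984). These are descriptions over few points.

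Loss of Pcm1 was then compared with WT in each region. No member was called in any region by edgeR's quasi-likelihood test at an adjusted p under 0.05: 0 of 48 in frontal cortex, where 1.74% of all genes were called, 0 in striatum (0.0285% of all genes) and 0 in hippocampus (0.0171% of all genes). With the 3 regions of each animal summed, 0 members were called beside 1.39% of all genes. At an unadjusted p under 0.05 there were 11 members in frontal cortex (22.9%, all genes 15.3%), 10 in striatum (20.8%, all genes 13.5%), 5 in hippocampus (10.4%, all genes 9.89%) and 12 in the sums (25%, all genes 17.2%). DESeq2 called 2, 3, 0 and 6 members at an adjusted p under 0.05, beside 5.14%, 3.84%, 1.77% and 7.91% of the genes to which it gave an adjusted p. The median log2 difference of the members was -0.01, -0.03 and 0.03 in frontal cortex, striatum and hippocampus.

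WT and KO libraries did not overlap for 11 members in frontal cortex (22.9%, all genes 21.3%), 10 in striatum (20.8%, all genes 19%) and 9 in hippocampus (18.8%, all genes 17.1%). These shares are near those of all genes. The frontal cortex counts, here and at an unadjusted p under 0.05, include Gnat1, and the striatum counts include Rgs1. Both reached the count minimum in libraries of 1 genotype only.

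The 5 members with the smallest p in each region are given as values. In frontal cortex the gamma subunit Gng12 measured 102, 88.01 and 96.8 CPM in WT and 81.04, 77.6 and 81.6 CPM in KO mice, without overlap (-0.26 ± 0.06, SE, log2; edgeR adjusted p = 0.0861). In striatum it measured 79.8, 83.1 and 79.9 CPM in WT and 71.7, 68.4 and 64.4 CPM in KO mice (-0.25 ± 0.06, SE, log2; edgeR adjusted p = 0.177), again without overlap, and in hippocampus the genotypes overlapped. DESeq2 called Gng12 in frontal cortex and striatum (DESeq2 adjusted p = 0.0241 and 0.0445).

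Rgs11 measured 19.4, 20.5 and 15.8 CPM in WT and 13.01, 15.2 and 10.01 CPM in KO frontal cortex (-0.55 ± 0.15, SE, log2; edgeR adjusted p = 0.13, DESeq2 adjusted p = 0.0133). Rgs4 measured 491, 502 and 501 CPM in WT and 603, 542 and 540.0 CPM in KO frontal cortex (0.17 ± 0.06, SE, log2; edgeR adjusted p = 0.207), and Gnai2 207, 201 and 183 CPM and 174, 182 and 177 CPM (-0.16 ± 0.06, SE, log2; edgeR adjusted p = 0.269). Gnat1 had a log2 difference of 2.11 ± 0.54 (SE) on at most 12 counts in a library. It reached 10 counts in 1 library only, KO frontal cortex replicate 2, so the rule took it in through the group where it was high. Its difference and lack of overlap are therefore no support for a change. The genotypes did not overlap for these 5 genes in frontal cortex. The 7 striatal neuron markers summed to 197 to 219 CPM in WT and 252 to 282 CPM in KO frontal cortex, 5 of 7 higher and 2 of them called (Drd1 and Penk), none at 0, and their part in the Rgs4 values was not tested.

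In striatum Gnb4 measured 33.6, 31.6 and 37.9 CPM in WT and 57.8, 45.6 and 45.8 CPM in KO mice, without overlap (0.53 ± 0.11, SE, log2; edgeR adjusted p = 0.14, DESeq2 adjusted p = 0.00264). Rgs2 measured 155, 166 and 134 CPM in WT and 193, 182 and 197 CPM in KO mice, again without overlap (0.33 ± 0.08, SE, log2; edgeR adjusted p = 0.19, DESeq2 adjusted p = 0.0222). The lowest WT value of Rgs2 was in replicate 3, the library high in choroid plexus and thalamus markers, and without it the Rgs2 difference was 0.25 (log2; edgeR adjusted p = 0.186) and that of Gnb4 0.61 (log2; edgeR adjusted p = 0.113). Replicate 3 is also the WT striatum library with high Y chromosome counts (3889), so leaving it out changes the balance of sexes too. Rgs1, on at most 17 counts, had -1.73 ± 0.48 (SE, log2). It reached 10 counts in 3 libraries, all WT, so the rule took it in through the genotype where it was high. Its difference and lack of overlap are therefore no support for a change. Gna12 had -0.23 ± 0.08 (SE, log2; edgeR adjusted p = 0.28). The striatal neuron markers summed to 6466 to 7549 CPM in WT and 7805 to 8444 CPM in KO striatum, 7 of 7 higher and 0 called, and their part in the Rgs2 and Gnb4 values was not tested. Over the alternatives run, the adjusted p ranged from 0.0241 to 0.31 for Gng12 and from 0.0111 to 0.392 for Rgs11 in frontal cortex, and from 0.00264 to 0.484 for Gnb4, 0.0222 to 0.59 for Rgs2 and 0.0445 to 0.516 for Gng12 in striatum. The 3 WT striatum libraries shared a sequencing lane that held none of the KO ones, which makes lane and genotype inseparable in this region.

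In hippocampus Rgs3, which acts on the Gi and Gq groups, measured 15.2, 11.4 and 13.3 CPM in WT and 10.1, 8.600 and 9.99 CPM in KO mice (-0.49 ± 0.14, SE, log2; edgeR adjusted p = 0.405). Rgs6 measured 10.7, 9.25 and 14.7 CPM and 5.56, 4.74 and 9.097 CPM (-0.85 ± 0.28, SE, log2; edgeR adjusted p = 0.428), and Rgs14 67.96, 92.9 and 88.3 CPM and 119.6, 98.1 and 104 CPM (0.35 ± 0.13, SE, log2; edgeR adjusted p = 0.46). The genotypes did not overlap for these 3 genes. They overlapped for Rgs16 (-1.64 ± 0.53, SE, log2; edgeR adjusted p = 0.428) and Gng11 (-0.63 ± 0.24, SE, log2; edgeR adjusted p = 0.461). All 5 thalamus markers were lower in KO hippocampus, 0 called, with sums of 177 to 401 CPM in WT and 64.3 to 199 CPM in KO mice and Gbx2 at 0 in 3 libraries of the series. Without WT replicates 1 and 3 and KO replicate 3, which are high in these markers, 1 WT library and 2 KO libraries remained, at 177 against 77.8 and 64.3 CPM of the markers, and no test is given. That WT library had 3372 counts on Y chromosome genes, and the KO libraries 85 and 3233, so sex is not balanced between them. The log2 differences between these libraries were -0.28 for Rgs3, -0.84 for Rgs6, 0.23 for Rgs14, -1.03 for Rgs16 and -0.44 for Gng11.

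**Figure D5:**
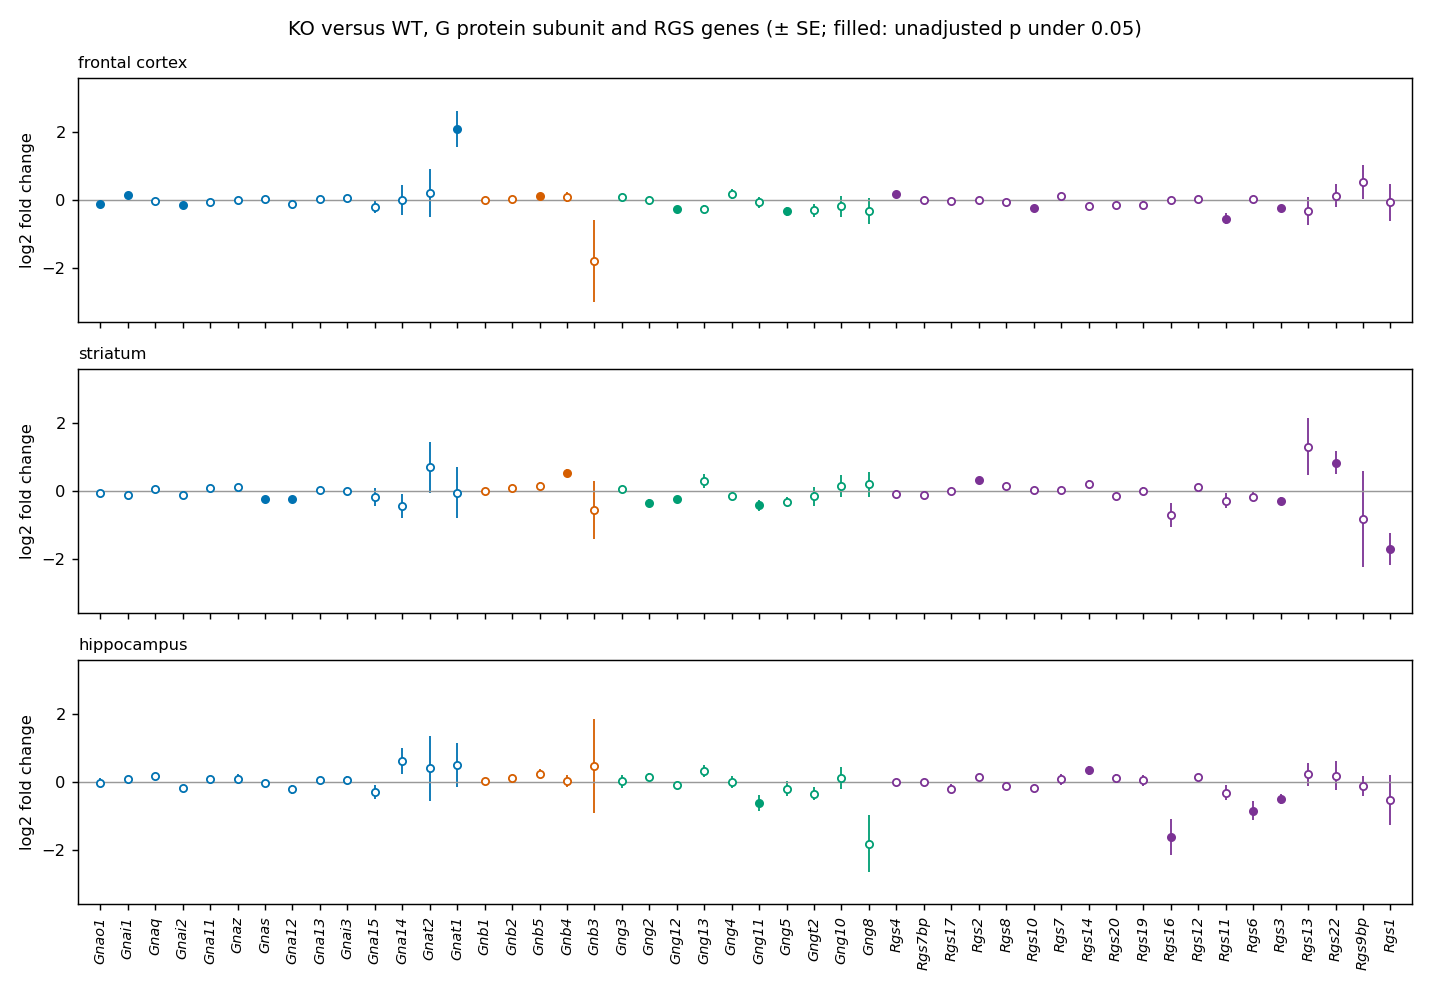
Log2 difference of KO against WT with SE for each of the 48 genes in the 3 regions, grouped by family. Filled points have an unadjusted p under 0.05, and none passed the adjusted threshold of edgeR.

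Rgs3 was the member whose KO libraries lay below all WT libraries in each of the 3 regions, and it was singled out after its values were seen. The share of all genes with this pattern was not counted, and the 3 regions come from the same animals, so the pattern is a description only. Rgs3 measured 9.28, 8.41 and 8.33 CPM in WT and 7.21, 7.29 and 7.66 CPM in KO frontal cortex, and 12.1, 13.3 and 13.2 CPM and 8.96, 11.97 and 10.3 CPM in striatum. In the summed animals its log2 difference was -0.36 ± 0.08 (SE; edgeR adjusted p = 0.0756). Gng11 (-0.43 ± 0.09), Gna12 (-0.20 ± 0.04), Gng12 (-0.20 ± 0.05) and Rgs16 (-0.86 ± 0.21) were the others with the smallest p in the sums (SE, log2; edgeR adjusted p from 0.0754 to 0.0968), likewise named after their values were seen. DESeq2 called these 5 and Rgs2. The 5 thalamus markers were all lower in the summed KO animals, with a median log2 difference of -1.15 and 1 of them called (Lef1). With frontal cortex and striatum alone summed, 0 members were called, and the differences were -0.19 for Rgs16, -0.36 for Gng11, -0.29 for Rgs3, -0.20 for Gna12 and -0.26 for Gng12 (log2; edgeR adjusted p from 0.0613 to 0.537). The part of the thalamus markers in the summed values was not tested.

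Markers of endothelium, blood, microglia and oligodendrocytes had lower values in KO tissue in the same comparisons. All 5 endothelium markers were lower in each region, 0 called, and summed to 149 to 212 CPM in WT and 135 to 141 CPM in KO frontal cortex, 137 to 185 and 139 to 146 CPM in striatum, and 124 to 179.9 and 105 to 118 CPM in hippocampus. All 4 blood markers were lower in each region, 0 called, at 97.02 to 157 and 32.4 to 70.7 CPM in frontal cortex, 64.3 to 204 and 40.00 to 82.2 CPM in striatum, and 113 to 194 and 29.8 to 62.8 CPM in hippocampus. No marker of these lists was at 0. All 6 microglia markers (median log2 difference -0.30, -0.39 and -0.22) and all 5 oligodendrocyte markers (-0.24, -0.40 and -0.59) were lower too, with 1 of them, the oligodendrocyte gene Mag, called in the sums (-0.46 ± 0.07, SE, log2; edgeR adjusted p = 0.0397). The 4 choroid plexus markers were all lower in KO striatum, hippocampus and the sums and 3 of 4 in frontal cortex, 0 called, with median log2 differences of -3.38, -0.58, -1.02 and -0.32. Their sums overlapped between the genotypes, at 50.5 to 5941 CPM in WT and 30.3 to 164 CPM in KO striatum, the highest in WT replicate 3, and 2127 to 6226 and 219 to 4113 CPM in hippocampus. All 5 mural cell markers were lower in KO frontal cortex and 4 of 5 in striatum and hippocampus, with sums of 86.8 to 118 and 81.1 to 87.2 CPM in WT and KO frontal cortex, 105 to 107 and 86.7 to 94.97 CPM in striatum, and 90.7 to 114 and 68.7 to 80.5 CPM in hippocampus. Of them 1 was called, the smooth muscle actin gene Acta2 in frontal cortex, at 7.25, 5.82 and 4.83 CPM in WT and 2.44, 2.66 and 2.95 CPM in KO mice (-1.16 ± 0.17, SE, log2; edgeR adjusted p = 0.0186). Astrocyte markers did not move one way, with 3 of 5 higher in frontal cortex, 1 in striatum and 2 in hippocampus, nor did precursor markers, with 0, 1 and 2 of 3 higher. The part of these cells in the lower values of Rgs3, Gng11, Gna12 and Gng12 was not tested.

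Whether the KO difference itself varied between regions was asked with an interaction term over the 18 libraries. It called 0 members by edgeR, beside 0.0114% of all genes, with 7 members (14.6%) at an unadjusted p under 0.05 and 5.54% of all genes. This fit had no block for the animal, and with the animal as a block the interaction also called 0 members. The smallest p among members was that of Rgs6 (edgeR adjusted p = 0.728), followed by Gng2 (edgeR adjusted p = 0.746) and Rgs14 (edgeR adjusted p = 0.757). Gnai1, named after its values were seen, measured 223, 235 and 250.5 CPM in WT and 258, 265 and 264 CPM in KO frontal cortex and 136, 148 and 137 CPM and 129, 127 and 130.5 CPM in striatum, without overlap and in opposite directions, and its interaction did not pass (edgeR adjusted p = 0.872).

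Signaling partners were a list of 41 measured genes: adenylyl cyclases, phospholipase C beta enzymes, GPCR kinases, arrestins, GIRK channels and other binding partners, with Gnal, Gng7, Rgs5 and Rgs9. Against frontal cortex, 7 of them were called higher and 10 lower in WT striatum (41.5%, all genes 17.4%). Rgs9, the striatal R7 protein, was higher by 6.03 ± 0.10, Gng7 by 4.11 ± 0.11 and the striatal cyclase Adcy5 by 3.20 ± 0.10 (SE, log2). The GIRK channel genes Kcnj6 (-4.25 ± 0.16), Kcnj3 (-2.47 ± 0.11) and Kcnj9 (-2.28 ± 0.09) and the cyclases Adcy1 (-1.98 ± 0.13) and Adcy2 (-1.83 ± 0.07) were lower (SE, log2). For these 8 genes the edgeR adjusted p was at most 2.78e-09. The other GIRK gene of the list, Kcnj5, was higher in striatum, at 2.17, 2.23 and 3.04 CPM against 0.07002, 0.228 and 0.332 CPM in frontal cortex (3.55 ± 0.53, SE, log2; edgeR adjusted p = 2.96e-05). In WT hippocampus against frontal cortex 3 partners were called higher and 1 lower (9.76%, all genes 12.2%), and in striatum against hippocampus 9 higher and 7 lower (39.0%, all genes 12.7%).

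By genotype, 1 partner was called in frontal cortex (2.44%, all genes 1.74%) and in the sums (2.44%, all genes 1.39%), in both Kcnj3, which encodes the GIRK1 channel subunit opened by beta-gamma. It measured 178, 183 and 201 CPM in WT and 253, 237 and 244 CPM in KO frontal cortex, higher by 0.38 ± 0.06 (SE, log2; edgeR adjusted p = 0.024), without overlap. In the summed animals the Kcnj3 difference was 0.34 ± 0.04 (SE, log2; edgeR adjusted p = 0.0293). Of the 6 neuron markers, 5 were higher in KO frontal cortex and 2 of them called (Syt1 and Slc17a7), and their part in the Kcnj3 difference was not tested. At an unadjusted p under 0.05 there were 10 of the 41 partners in frontal cortex (24.4%, all genes 15.3%). In striatum and hippocampus 0 partners were called by edgeR, with 11 and 13 of the 41 at an unadjusted p under 0.05 (26.8% and 31.7%, beside the 13.5% and 9.89% of all genes), and Kcnj3 in hippocampus measured 194, 189.9 and 181 CPM in WT and 238, 273 and 212 CPM in KO mice (0.34 ± 0.10, SE, log2; edgeR adjusted p = 0.405). In striatum Kcnj3 was at 30.7, 29.2 and 41.2 CPM in WT and 32.04, 33.7 and 30.4 CPM in KO mice, with overlap (-0.07 ± 0.13, SE, log2; edgeR adjusted p = 0.856).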

How the data were processed

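Libraries were made with a stranded mRNA kit from tissue of both sexes, and 1 animal of each genotype had 3064 to 4393 counts on Y chromosome genes per library, where the others had 67 to 112. The authors trimmed reads (Trim Galore, cutadapt), aligned with STAR to GRCm38, discarded reads placed at several positions, and deposited raw HTSeq counts per Ensembl gene for each library. Tool versions and the strand setting of the counting are not given in the sources used here. Of the counted reads 86.8% to 89.2% fell on genes, and rows that name no gene stayed out of library sizes. Symbols, positions and union exon lengths for TPM came from GENCODE M21 on the same build, and promoter sequences from RefSeq (GRCm38.p6).

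Counts were fitted with edgeR 4.0.16 in R 4.3.3 (TMM factors, quasi-likelihood test, Benjamini-Hochberg adjustment over all genes tested), per region for genotype, in a single fit of 6 groups without a block for regions and interaction, and on counts summed per animal. CPM used TMM factors over all 18 libraries, and DESeq2 1.42.0 was the other test. Plots used matplotlib 3.10.9. The steps were tested on simulated data. Animals were read from the deposited names, not from replicate numbers, which differ between them in WT striatum. After removal of group means, the correlation of an animal's libraries across regions averaged 0.232 (0.0801 to 0.386, 18 pairs), and that of different animals -0.115 (36 pairs). The animal block was therefore run as an alternative for the region contrasts and the interaction. Precision was taken from the spread between libraries.

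Members, marker lists and partner lists were chosen with earlier results of these data known. Genes named were those past the threshold by genotype, otherwise the 5 with the smallest p in a region, those called at 2-fold between WT regions with at least 1 CPM in the higher group, the 2 most abundant of each family, the lowest members, and the 3 members most alike over the group means. Alternatives were DESeq2, other size factors and filters, lane, blocks, any fold, and leaving out each library. Those that leave out the libraries high in thalamus markers together, and the sums without hippocampus, were chosen after seeing the data. Rgs21 was not analysed here.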

Additional observations from a re-analysis of the deposited data

How the results depend on the processing

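Direction was followed over the alternatives for members named by genotype within a region or by a 2-fold call between WT regions. None of these differences turned direction. The other members, the summed animals, the markers and the partners, Kcnj3 among them, were outside this check. DESeq2 called 2 members by genotype in frontal cortex (Gng12, Rgs11), 3 in striatum (Gnb4, Gng12, Rgs2) and 6 in the summed animals, and without a filter on low counts edgeR called 1 in frontal cortex (Rgs11), beside 2.22% of all genes. Libraries of WT and KO mice with the same number are different animals. The correlation of their deviations averaged 0.167 in frontal cortex (lowest pair 0.0428), 0.266 in hippocampus (lowest 0.0955) and -0.0823 in striatum, where WT numbers follow another order of the animals. With WT striatum numbered by animal it averaged 0.227 (lowest 0.0635). All 9 pairs were then above 0, but each region had a pair under 0.1, so the numbers were not taken to pair the libraries. With the replicate number as a block, 2 members were called in frontal cortex (Gng12, adjusted p = 0.0403, and Rgs11, adjusted p = 0.0111, edgeR), beside 3.79% of all genes, and 0 in hippocampus. In striatum 0 members were called with the block on the labelled numbers, which do not match the animals, and 0 with the block on WT libraries renumbered by animal, chosen after seeing the data (edgeR adjusted p = 0.0557 for Rgs2, 0.0647 for Gnb4 and 0.077 for Gng12). The animal block changed no count of region calls by over 1.5 times. It gave 10 members for WT striatum against hippocampus, where Rgs19 fell below 2-fold.

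Without a limit on the fold, 34, 24 and 23 members were called in the WT contrasts of striatum with frontal cortex, hippocampus with frontal cortex and striatum with hippocampus, and 35, 25 and 28 in KO mice. Leaving out each library in turn gave 0 to 1 members by genotype in frontal cortex (Rgs11 without WT replicate 3, edgeR adjusted p = 0.0442, beside 4.7% of all genes) and 0 in the other genotype comparisons and the interaction. For those WT contrasts it gave 12 to 14, 6 to 11 and 10 to 13 members, beside 16.2% to 17.1%, 10.6% to 13.1% and 11.5% to 14.2% of all genes in the same fits. The 6 came without WT hippocampus replicate 3, where 11.6% of all genes were called. For the KO contrasts it gave 16 to 18, 5 to 8 and 11 to 14, beside 17.7% to 18.1%, 11.1% to 13.3% and 14.1% to 15.2% of all genes. With lane as a covariate no member was called by genotype in frontal cortex or hippocampus. Depth limits what can be said of the members below 1 CPM.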
